A study of Mus musculus with 4 samples.

Results

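*Actb*, *Gapdh*, *Hprt*, *Tbp*, *B2m*, *Ywhaz*, *Gusb* and *Ppia* are among the genes often used to normalise RT-qPCR in mouse cells. They were examined here for how far their mRNA levels held steady when *Setd2* was knocked down. The 8 genes were chosen by symbol, and every transcript of them in the deposited comparison was used, which gave 18 of 34200 transcripts and 8 of 21945 genes. The cells were NIH/3T3, an immortalised line of mouse fibroblasts. KD cells received siRNAs against *Setd2* and WT cells a Scrambled siRNA, at 10 nM by lipofection in both groups, and RNA was taken at 48 h. Polyadenylated RNA was sequenced in 2 KD and 2 WT libraries. WT therefore denotes transfected cells with a non-targeting siRNA, and every library came from the same cell line.

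A reference gene serves as the denominator of a relative RT-qPCR measurement. Any difference in its own level between groups is passed on, inverted, to every gene set against it. The members have unrelated functions. *Actb* encodes cytoplasmic beta-actin of the cytoskeleton, *Gapdh* a glycolytic enzyme, *Hprt* and *Gusb* enzymes of purine salvage and of lysosomal sugar degradation, *Tbp* the TATA-binding protein of transcription initiation, *B2m* the light chain of MHC class I, *Ywhaz* the zeta 14-3-3 adaptor protein and *Ppia* cyclophilin A, a prolyl isomerase. Abundant housekeeping mRNAs such as those of *Gapdh* and *Ppia* have left many processed pseudogenes, which are intronless copies of the mRNA inserted elsewhere in the genome. SETD2 is the enzyme that trimethylates histone H3 at lysine 36 over transcribed genes. In the RT-qPCR of the study, levels were expressed relative to *Actb*.

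For *Gapdh*, the sequence itself bears on every value below. The same stretch of 90 coding bases is shown for *Gapdh* (GRCm38 chromosome 6, 125161854 to 125165773, minus strand, transcript ENSMUST00000118875.7) and for its processed pseudogenes *Gm7336* (chromosome 7, 51746647 to 51747878, plus strand) and *Gm13394* (chromosome 2, 28933610 to 28934609, minus strand). These are the only *Gapdh* copies to which more than 1000 normalised estimated counts were assigned. The stretch runs from coding base 301 to 390, counted from the A of the start codon, and the capital marks the only position at which *Gm13394* differs from the coding sequence of *Gapdh*, the substitution A346C.
Gapdh: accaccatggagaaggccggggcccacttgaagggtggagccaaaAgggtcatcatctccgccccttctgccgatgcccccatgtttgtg
Gm7336: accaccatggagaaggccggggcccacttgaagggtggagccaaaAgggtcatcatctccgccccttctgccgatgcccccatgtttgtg
Gm13394: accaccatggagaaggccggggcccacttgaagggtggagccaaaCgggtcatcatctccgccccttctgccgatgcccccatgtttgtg
*Gm7336* was identical to *Gapdh* over all 999 coding bases and *Gm13394* over 99.9% of them. A read from within this region therefore carries no information on whether it came from the gene or from *Gm7336*.

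Levels are given as normalised estimated counts, which are the reads assigned to a transcript after scaling for the size of each library. A group's level is the geometric mean of its 2 libraries, and spread is the SD between libraries of the same group, pooled over KD and WT, in log2 units. Since no values of separate libraries were used, sequencing depth is unknown, and 95% intervals rest on a moderated variance with 4.67 degrees of freedom. A transcript was called at a Benjamini-Hochberg adjusted p under 0.05 over all 34200 transcripts. By this rule 3312 transcripts, or 9.68%, were called, 1861 higher in KD (5.44%) and 1451 lower (4.24%). After centring on transcripts with a mean of at least 1000, the split was 1202 higher and 1998 lower. The study describes independent transfections, but which of them each library came from is not stated, and p-values measure the spread between these libraries, which may be technical. In bulk RNA, fewer cells and less RNA per cell cannot be told apart.

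*Setd2* was the check of the labels. Its only tested transcript, ENSMUST00000153838.7, stood at 3680 in WT and 923 in KD with a spread of 0.048. Its log2(fold change) was −1.99 ± 0.08 (SE), with an adjusted p of 0.0144. All 8 fibroblast markers examined were present, from 2723 for *Pdgfrb* to 346235 for *Col1a2* in WT. The summed markers of endothelial, epithelial, muscle and leukocyte cells reached 57.3, 119, 157 and 711 in WT and 84.1, 158, 147 and 877 in KD. *Epcam*, *Krt18* and *Myod1* had no tested transcript. The part of these cells in any result was not tested.

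Of the 18 reference gene transcripts, 2 were called, both higher in KD and belonging to *Gapdh* and *Actb*. None was called lower. Against a background of 9.68% of all transcripts, and of 20.7% among transcripts with a mean of at least 1000, the share of the members was 2 of 18, and 2 of 10 at that level. Unadjusted p-values were under 0.05 for 3 transcripts. For 6 of the 18 the difference between groups was so large relative to the spread that no KD library can have overlapped with a WT library, a condition met by 54.8% of all transcripts. The other 12 did not meet this condition. Where the log2(fold change) was smaller in size than the spread, the ranges of the groups must have overlapped, as for *Gapdh-203* (0.18 against 0.32). Where it was larger, as for *B2m-201* (−0.19 against 0.15), overlap could not be settled from the pooled values.

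**Figure D1:**
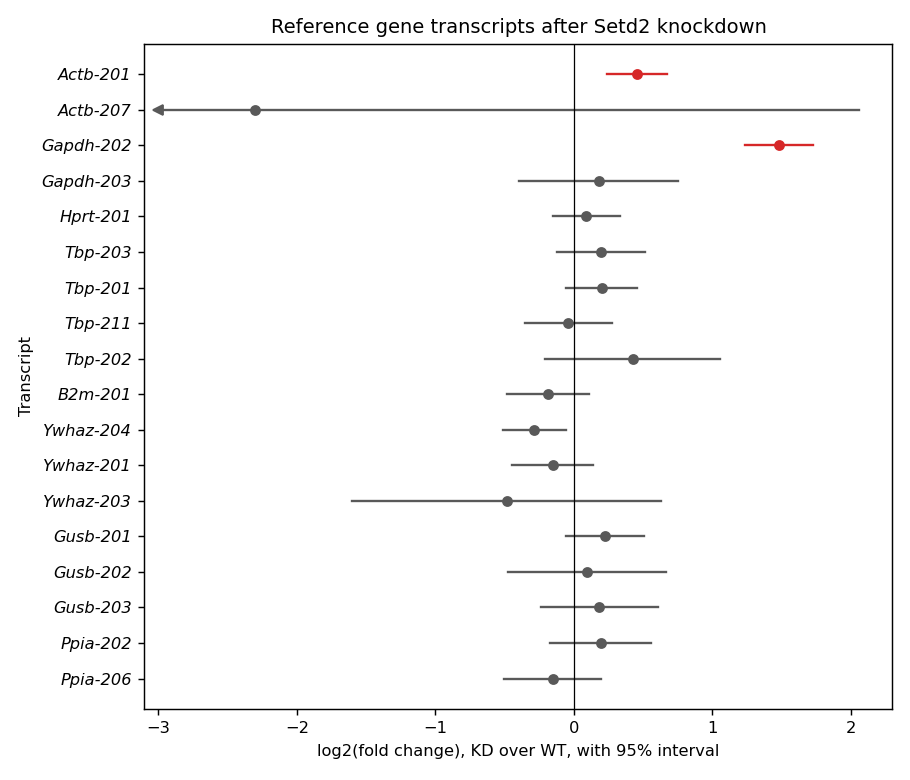
log2(fold change) of KD over WT for each of the 18 reference gene transcripts (x axis, points) with its 95% interval (lines); an arrow marks an interval that runs past the axis. Red marks an adjusted p under 0.05, reached by *Actb-201* at 0.46 and *Gapdh-202* at 1.48, while the intervals of most others span 0.

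*Gapdh* differed most between the groups. The transcript *Gapdh-202* (ENSMUST00000117757.8, 1273 bases in 7 exons) rose from 9527 in WT to 26580 in KD. The spread was 0.11, the fold change 2.79 (95% interval 2.35 to 3.31) and the adjusted p 0.0152 by the moderated limma test. Its KD and WT libraries cannot have overlapped. The call was made under each centring, and was lost when the variance was not modelled as a trend on the mean (adjusted p = 0.0957). The second transcript, *Gapdh-203* (ENSMUST00000118875.7), stood at 8059 in WT and 9137 in KD with a wider spread of 0.32. Its fold change was 1.13 with an interval from 0.76 to 1.69, and it was not called (adjusted p = 0.640). *Gapdh-202* thus made up 54.2% of the tested *Gapdh* counts in WT and 74.4% in KD, a shift of which the difference between the transcripts was not tested.

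Little of this assignment could be resolved by sequence. Of the 31-base words of *Gapdh-202*, 92.1% also occurred in transcripts of other annotated genes and 0 were found in it alone. *Gapdh-203* had 197 words of its own, and 84.1% of its words recurred in other genes. A further transcript, *Gapdh-201* (1272 bases), equals *Gapdh-202* without its last base and was not among the tested transcripts. The technical variance deposited for each transcript does not separate the sampling of reads from their assignment. It equalled 32.6% of the variance between libraries for *Gapdh-202*, against 2.12% for *Gapdh-203*. This share also depends on the spread between libraries of a group, which was 0.11 for *Gapdh-202* and 0.32 for *Gapdh-203*. Among the 18 transcripts it ran from 0.054% for *Ppia-202* to 252% for *Tbp-201*, and it was larger than that of *Gapdh-202* for 3 of them. It was 48.8% for *Setd2*, all of whose 31-base words were its own, so it does not measure shared sequence alone.

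More counts were assigned to the pseudogenes than to *Gapdh*. *Gm7336* rose from 40833 in WT to 70072 in KD, with a spread of 0.093, a fold change of 1.72 (1.48 to 2.00) and an adjusted p of 0.0201. *Gm13394* rose from 28067 to 58553, with a spread of 0.092, a fold change of 2.09 (1.80 to 2.42) and an adjusted p of 0.0162. In both cases the libraries of the groups cannot have overlapped. Summed over both *Gapdh* transcripts and both pseudogenes, counts were 86486 in WT and 164342 in KD, a 1.90-fold difference. The gene itself held 20.3% of this sum in WT and 21.7% in KD. Whether reads assigned to the pseudogenes arose from *Gapdh* mRNA was not tested.

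**Figure D2:**
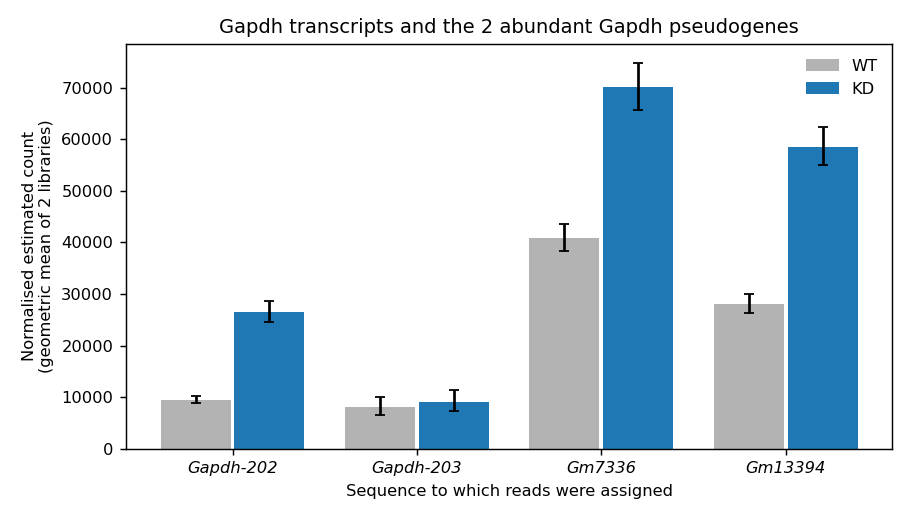
Normalised estimated counts (y axis) assigned to the *Gapdh* transcripts and to *Gm7336* and *Gm13394* (x axis) in WT (grey) and KD (blue); bars are geometric means of 2 libraries and error bars the pooled SD between libraries of a group. All 4 pairs stand higher in KD, and the bars of *Gm7336*, at 40833 and 70072, exceed those of *Gapdh-202*, at 9527 and 26580.

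Further copies added almost nothing. Of 43 annotated *Gapdh* copies that share at least 50% of their 31-base words with it, 17 were tested. The other 15 had means between 3.46 and 23.4 counts, and none of these was called. All 17 had a positive log2(fold change), but they share sequence with *Gapdh* and with one another and are not independent of it. With every tested copy, the sum was 86588 in WT and 164541 in KD, and its log2(fold change) was 0.93, against 1.02 for the transcripts of the *Gapdh* symbol alone.

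*Actb* was the other called member. *Actb-201* (ENSMUST00000100497.10, chromosome 5, 142903115 to 142906754, minus strand, 6 exons) rose from 82423 in WT to 113066 in KD. Its spread was 0.090 and its fold change 1.37 (1.18 to 1.59), with an adjusted p of 0.0414, and the groups cannot have overlapped. The call lay close to the threshold and was lost when effects were centred on transcripts with a mean of at least 1000 (log2(fold change) 0.36, adjusted p = 0.0659), when they were centred on transcripts of similar GC content (0.38, adjusted p = 0.0685), and when the variance was not modelled as a trend on the mean (adjusted p = 0.173). The direction was positive in each. *Actb-207* (ENSMUST00000167721.7) carried 0.0054% of the *Actb* counts, at 12.1 in WT and 2.06 in KD, with a spread of 2.38, and its difference could not be measured at this level (adjusted p = 0.427).

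No annotated copy shared 50% of its words with *Actb*, although 34.7% of the words of *Actb-201* recurred in other genes. *Actg1*, which encodes the other cytoplasmic actin, stood at 118618 in WT and 138025 in KD, a log2(fold change) of 0.22. Its main transcript was not called (adjusted p = 0.105). *Acta2*, the smooth muscle actin, fell from 7508 to 2131, by 1.82 on the log2 scale (SE 0.16, adjusted p = 0.0183). The differences among the 3 actins were not tested.

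*Hprt* had the summed level that differed least between the groups, except under centring on GC content. *Hprt-201* (ENSMUST00000026723.8, chromosome X, 52988137 to 53021659, plus strand, 9 exons) was its only tested transcript and none of its 31-base words occurred in another gene. It stood at 4405 in WT and 4688 in KD, with a spread of 0.10. The fold change of 1.06 had an interval from 0.90 to 1.26 and was not called (adjusted p = 0.578), and its log2 value turned to −0.0077 when centred on transcripts with a mean of at least 1000. After centring on GC content it was 0.26, farther from zero than the sums of *Ppia*, *B2m*, *Gusb* and *Ywhaz*. Before centring, a difference of up to 1.26-fold was not excluded by these libraries, and this bound is not that of the centred values.

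*Tbp* had 4 tested transcripts and the lowest levels of the 8 genes. *Tbp-203* (ENSMUST00000118001.7) stood at 753 in WT and 862 in KD, *Tbp-201* (ENSMUST00000014911.11) at 730 and 840. Both had fold changes near 1.15, with adjusted p-values of 0.361 and 0.259. *Tbp-211* (ENSMUST00000162505.7), 12794 bases long, stood at 421 and 409, and its log2(fold change) of −0.042 became 0.14 after centring on GC content. *Tbp-202* (ENSMUST00000117593.7) stood at 272 and 365 with a spread of 0.32, and its interval ran from 0.86-fold to 2.08-fold. For *Tbp-203* and *Tbp-201* the groups cannot have overlapped, yet neither was called. For *Tbp-201* the deposited technical variance exceeded the variance between libraries (252%). All 4 share exons on chromosome 17, and only 28 words of *Tbp-203* and 57 of *Tbp-201* were their own.

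*Gusb* showed a similar value. *Gusb-201* (ENSMUST00000026613.13, chromosome 5, 129989011 to 130003049, minus strand, 12 exons) held 86.2% of the counts of the gene. It stood at 3933 in WT and 4593 in KD, with a spread of 0.13, a fold change of 1.17 (0.96 to 1.42) and an adjusted p of 0.261. *Gusb-202* (ENSMUST00000111307.1) stood at 353 and 378 and *Gusb-203* (ENSMUST00000111308.7) at 294 and 334. Neither was called, with adjusted p-values of 0.815 and 0.513, and the log2(fold change) of *Gusb-202* turned from 0.097 to −0.00089 after centring on transcripts with a mean of at least 1000. No word of any *Gusb* transcript occurred in another gene.

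*Ppia* was the most abundant member per length. Its main transcript, *Ppia-202* (ENSMUST00000132846.1, chromosome 11, 6415443 to 6419817, plus strand, 5 exons), stood at 112421 in WT and 128527 in KD. With a spread of 0.19, the fold change of 1.14 had an interval from 0.89 to 1.47 (adjusted p = 0.427). Its log2(fold change) of 0.19 became −0.024 after centring on GC content. *Ppia-206* (ENSMUST00000213200.1) stood at 1080 and 971 (adjusted p = 0.506) and made up 0.84% of the gene.

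Copies mattered less for *Ppia* than for *Gapdh* in share of counts. Of 7 annotated *Ppia* copies 4 were tested. The processed pseudogene *Gm10123* (chromosome 9, 96895658 to 96896147, plus strand) had all of its 31-base words in *Ppia* and stood at 28082 in WT and 33010 in KD, with a fold change of 1.18 (0.93 to 1.48) and an adjusted p of 0.312. The tested copies held 20.1% of the counts of gene and copies together, against 78.8% for *Gapdh*. With them, the log2(fold change) of the *Ppia* sum was 0.20 rather than 0.19.

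*B2m* and *Ywhaz* were the members with lower summed levels in KD. *B2m-201* (ENSMUST00000102476.4, chromosome 2, 122147686 to 122153083, plus strand, 4 exons) shared no word with other genes. It stood at 35329 in WT and 30999 in KD, with a spread of 0.15, a fold change of 0.88 (0.71 to 1.08) and an adjusted p of 0.346. Its log2(fold change) of −0.19 became 0.031 after centring on GC content.

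*Ywhaz-204* (ENSMUST00000110362.3, chromosome 15, 36771704 to 36793837, minus strand, 6 exons) stood at 14784 in WT and 12128 in KD with a spread of 0.098. The fold change was 0.82 (0.70 to 0.96) with an unadjusted p of 0.0241 from the moderated limma test, and the groups cannot have overlapped. It was not called, with an adjusted p of 0.116, the lowest among the 16 uncalled members. With the standard error that the authors deposited in place of the moderated one, the adjusted p was 0.0225. *Ywhaz-201* (ENSMUST00000022894.13) stood at 7499 and 6739 and *Ywhaz-203* (ENSMUST00000110361.7) at 207 and 148, with adjusted p-values of 0.430 and 0.512.

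Summed over transcripts, 6 of the 8 genes were higher and 2 lower in KD. The log2(fold change) of the sum was 1.02 for *Gapdh* and 0.46 for *Actb*. The sums of the other genes above zero lay close together, at 0.21 for *Gusb*, 0.19 for *Ppia*, 0.19 for *Tbp* and 0.090 for *Hprt*. *B2m* was at −0.19 and *Ywhaz* at −0.24. No test was made of the sums. The median over the 8 was 0.19, against −0.029 over all genes and 0.091 over the 8111 genes with a summed level of at least 1000. The sum lay within 0.25 of zero for 52.1% of those genes and for 6 of the 8 members. After centring on transcripts with a mean of at least 1000 the number of members was 4, where *B2m* and *Ywhaz* left this range. On GC content it was 4 as well, where *Hprt* and *Tbp* left it. The matching share of all genes was not computed under either centring, so these counts have no background beside them.

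Pairs of reference genes differed in how well their ratio was kept. Of the 28 pairs, 9 shifted by more than 0.5 on the log2 scale between WT and KD. The ratio of *Tbp* to *Ppia* shifted by 0.0040 and that of *Gusb* to *Ppia* by 0.022, but by 0.33 and 0.13 after centring on GC content, under which the closest pair was *Hprt* and *Tbp* at 0.052. The widest shift was that of *Gapdh* to *Ywhaz*, at 1.26 or 2.40-fold, and at 1.00 on the log2 scale with GC content centred. Among the 15 pairs without *Actb* and *Gapdh* the widest was 0.45. These shifts are descriptions, without a test, since they could not be computed within single libraries.

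The choice of reference changed the size of the *Setd2* difference and kept its direction for each of the 8 genes. With no reference gene, *Setd2* was 74.9% lower in KD. Relative to *Gapdh* it was 87.6% lower and relative to *Actb* 81.7% lower. With *Gusb*, *Ppia*, *Tbp* and *Hprt* the values were 78.3%, 78.0%, 77.9% and 76.4%. With *B2m* and *Ywhaz* they were 71.4% and 70.3%. The geometric mean of all 8 gave 78.4%, and that of the 6 without *Actb* and *Gapdh* gave 75.6%. All of these percentages were computed before centring.

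The same shift applies to any gene. A gene with equal normalised levels in both groups would read 72.9% of WT relative to *Actb* and 49.2% relative to *Gapdh*. It would read 94.0% relative to *Hprt*, between 86.3% and 87.9% relative to *Gusb*, *Ppia* and *Tbp*, 114% relative to *B2m* and 118% relative to *Ywhaz*. These percentages were computed from sequencing, with sums before centring, and their order depends on that choice. After centring on GC content the sums of *B2m* and *Ppia* changed sign, to 0.031 and −0.026, and that of *Hprt* was 0.26. What an RT-qPCR assay of each gene would detect, pseudogene sequence included, was not tested.

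**Figure D3:**
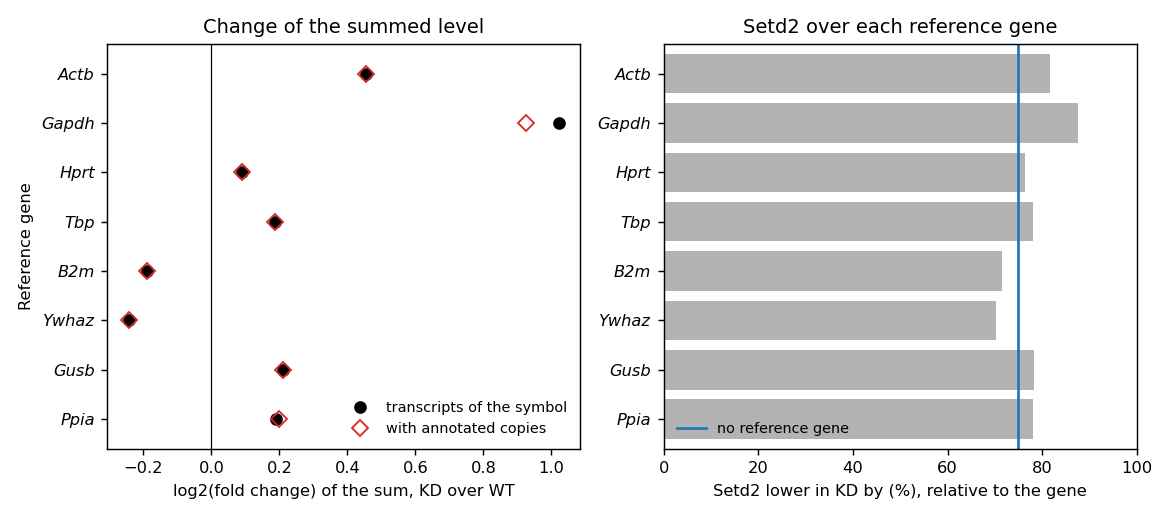
Left, log2(fold change) of KD over WT of the summed level of each reference gene (x axis), over transcripts of the symbol (black) and with its annotated copies (red diamonds). Right, percentage by which *Setd2* was lower in KD relative to each gene (bars) and with no reference gene (blue line, 74.9%). *Gapdh* and *Actb* lie farthest to the right in both panels, at 87.6% and 81.7% for *Setd2*.

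Among the abundant members, spread over the 4 libraries before centring was smallest for *Hprt*. The SD over all 4 libraries, which holds both the difference between groups and that within them, was 0.097 in log2 units for *Hprt-201*. Of the 1000 transcripts nearest to it in level, 21.4% had a smaller SD. *B2m-201* had an SD of 0.16 (41.1% smaller), *Ywhaz-204* of 0.18 (47.6%), *Gusb-201* of 0.17 (51.0%) and *Ppia-202* of 0.19 (51.1%). These values lay near the middle of transcripts at the same level. Since the SD holds the difference between groups, it depends on the centring. After centring on GC content that difference was 0.26 for *Hprt-201*, 0.031 for *B2m-201* and −0.041 for *Ywhaz-201*. The SDs were not computed with centring, so the place of *Hprt* holds for the uncentred values only. *Actb-201* had an SD of 0.27, with 74.4% of its neighbours smaller, and *Gapdh-202* of 0.86, with 99.3% smaller.

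The sources of the spread differed among the members. The difference between groups made up 98.9% of the sum of squares for *Gapdh-202* and 92.7% for *Actb-201*. It made up 81.0% for *Ywhaz-204*, 44.6% for *B2m-201*, 33.1% for *Ppia-202* and 28.5% for *Hprt-201*. Within groups, *Actb-201* (0.090) and *Gapdh-202* (0.11) had smaller SDs than *Ppia-202* (0.19) and *B2m-201* (0.15). *Tbp-211* had the smallest SD over the 4 libraries among the 18, at 0.075, and 4.50% of its neighbours in level were below it.

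**Figure D4:**
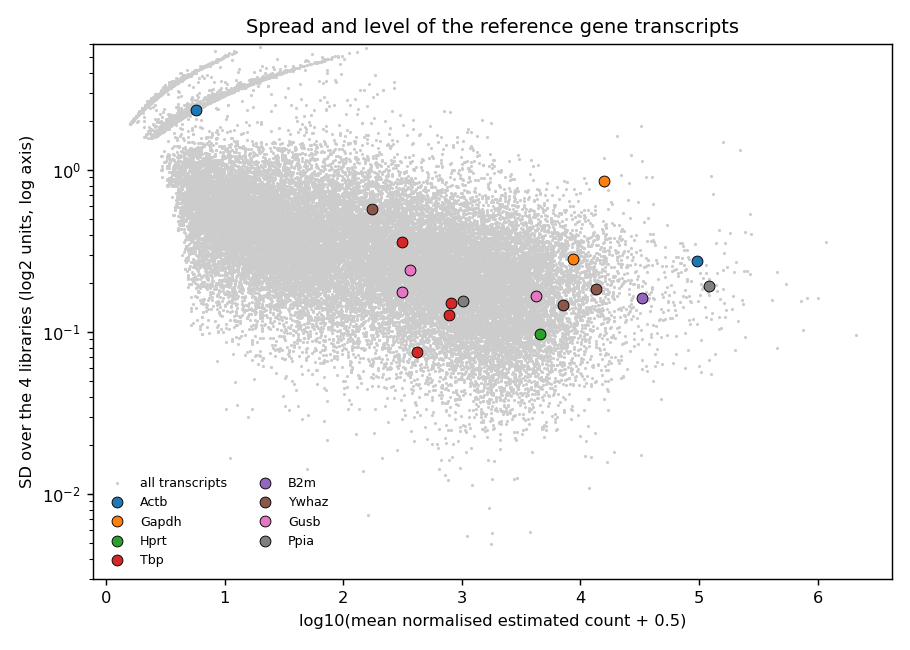
SD over the 4 libraries in log2 units (y axis, log scale) against the log10 of the mean normalised estimated count plus 0.5 (x axis), for all 34200 transcripts (grey) and the 18 reference gene transcripts (coloured by gene). *Gapdh-202* lies at the upper edge of transcripts of its level, at 0.86, whereas *Hprt-201* lies below their middle, at 0.097. All SDs are those before centring.

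Levels per length spanned a wide range. Per kilobase of transcript, the mean over the 4 libraries was 102739 for *Ppia-202*, 50279 for *Actb-201*, 38481 for *B2m-201*, 12500 for *Gapdh-202*, 6310 for *Ywhaz-204*, 3526 for *Hprt-201*, 1582 for *Gusb-201* and 488 for *Tbp-203*. Both *Gapdh* transcripts and both abundant pseudogenes summed to 102500 per kilobase, so the place of *Gapdh* in this order depends on whether counts assigned to the pseudogenes are included. That sum is not on the same footing as the value of *Ppia-202*. The latter leaves out the *Ppia* copy *Gm10123*, which had a mean of 30447 counts over 490 bases.

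A further 24 genes in use as references elsewhere were measured in 39 transcripts. Of these genes 18 had no called transcript, 4 had one higher in KD and 2 one lower, against 13.2% of all genes with a called transcript in either direction. Calls were more frequent at higher levels, at 20.7% of transcripts with a mean of at least 1000 against 9.68% of all transcripts. The 13.2% is therefore not matched to the level of these genes or of the lists below. The median log2(fold change) of their sums was 0.079. *Cyc1*, cytochrome c1 of the respiratory chain, rose by 0.56 (SE 0.063, adjusted p = 0.0215) from 6173 to 9098. *Ubb*, a polyubiquitin gene, rose by 0.43 (adjusted p = 0.0368). *Pgk1*, which follows *Gapdh* in glycolysis, and *Atp5b*, a subunit of the ATP synthase, rose by 0.43 and 0.41 (adjusted p = 0.0421 and 0.0302).

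*Tuba1a*, an alpha-tubulin, fell by 0.37 (SE 0.058, adjusted p = 0.0337) from 19620 to 15180. One of 5 transcripts of *Eif4a2*, an RNA helicase of translation initiation, fell by 0.40 (adjusted p = 0.0444), while the sum of that gene was at −0.15. Under both centrings, on level and on GC content, the calls of *Atp5b* and *Tuba1a* were made, whereas those of *Ubb* and *Pgk1* were lost in each and those of *Cyc1* and *Eif4a2* on GC content. The sums that differed least were those of *Eef1a1*, elongation factor 1 alpha, at 0.011 (756520 in WT, 762160 in KD) and of *Rpl4*, a large-subunit ribosomal protein, at −0.027. The sign for *Eef1a1* became negative (−0.087) after centring on transcripts with a mean of at least 1000. Of the words of *Eef1a1* 72.3% recurred in other genes, and those of *Ubb*, *Pgk1* and *Tuba1a* did so to 66.7%, 68.3% and 77.0%. How reads were divided among these copies was not tested.

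Of 10 housekeeping genes known for uniform expression across tissues, 2 were called, both higher in KD, against 13.2% of all genes. *Psmb2*, a proteasome subunit, rose from 8909 to 13025 (log2(fold change) 0.55, SE 0.098, adjusted p = 0.0414). *Vcp*, an AAA ATPase, rose from 19076 to 27166 (0.51, SE 0.095, adjusted p = 0.0443). Both calls were lost under each of the 2 centrings. The median of the 10 sums was 0.34, and 3 of them lay within 0.25 of zero. Centred on transcripts with a mean of at least 1000, the median was 0.24 and 6 lay within this range. *Chmp2a*, an ESCRT-III subunit, was at 0.0061 and *Emc7*, a subunit of the ER membrane complex, at −0.089, and their signs changed under at least one centring.

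**Figure D5:**
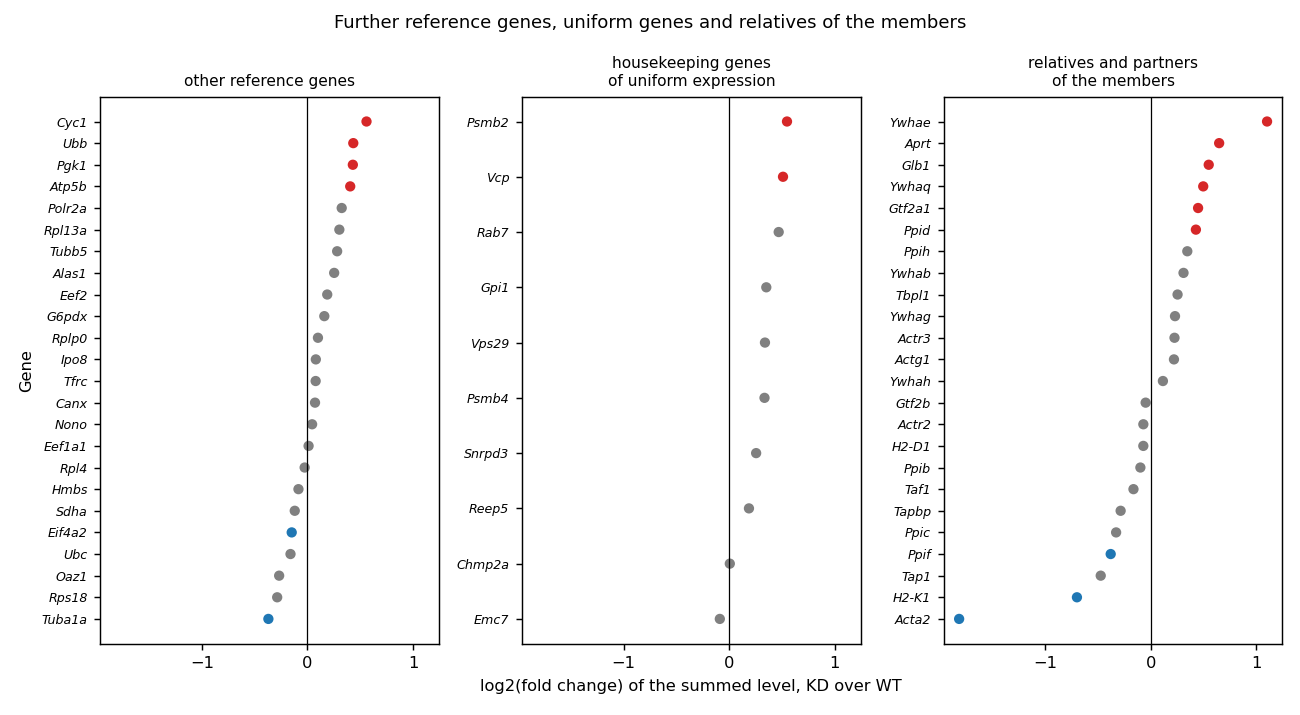
log2(fold change) of KD over WT of the summed level (x axis) for each gene (y axis) of 3 further lists. Red marks genes with a transcript called higher in KD, blue those with one called lower and grey the rest; the values run from −1.82 for *Acta2* to 1.10 for *Ywhae*, and those of the other reference genes from −0.37 to 0.56.

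Relatives and partners of the members moved over a wider range than the other reference genes. Of 27 genes in this list 24 were tested, 6 of which had a transcript called higher and 3 one called lower, against 13.2% of all genes with a call in either direction. The median of their sums was 0.17. After centring on transcripts with a mean of at least 1000 the calls were 3 higher and 5 lower. *Ywhae*, the epsilon 14-3-3 protein, rose from 20872 to 44756 (1.10, SE 0.079, adjusted p = 0.0160), and *Ywhaq*, the theta form, by 0.50 (adjusted p = 0.0309), while *Ywhaz* itself was at −0.24. Both calls were made under each centring. *Aprt*, the adenine counterpart of *Hprt* in purine salvage, had 2 of 4 transcripts called higher, and its sum rose from 8108 to 12693 (0.65). The called transcript with the larger difference rose by 0.81 (SE 0.15, adjusted p = 0.0430), from 235 to 414. Its call was lost under both centrings.

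*H2-K1*, an MHC class I heavy chain that pairs with the product of *B2m*, fell by 0.70 (SE 0.086, adjusted p = 0.0242), from 1776 to 1095 in its called transcript. It belongs to a family of close paralogs, and its reads may be divided among them. *H2-D1*, another class I heavy chain with a higher level, stood at 15584 in WT and 14829 in KD. Its log2(fold change) was −0.072, and it was not called (adjusted p = 0.503). *Ppif*, the mitochondrial cyclophilin, fell by 0.38 (adjusted p = 0.0491). *Ppid*, another cyclophilin, rose by 0.43 from 8074 to 10851 (adjusted p = 0.0464). The call of *Ppid* was lost after centring on transcripts with a mean of at least 1000. *Ppib*, *Ppic* and *Ppih* were not called. *Gtf2b*, a general transcription factor that binds TBP at promoters, was at −0.050 and *Actr2*, an actin-related protein of the Arp2/3 complex, at −0.071, a sign that turned positive after centring on GC content.

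For comparison, the transcripts with the smallest spread over the 4 libraries were listed among the 9014 with a mean of at least 1000. The 10 genes were *Dnajc27*, *Vav2*, *Socs4*, *Pdlim1*, *Prkab2*, *Slc6a6*, *Sepsecs*, *1700021F05Rik*, *Usp31* and *Zfp52*. Their SDs ran from 0.0049 for *Dnajc27*, at 1770 in WT and 1773 in KD, to 0.013 for *Zfp52*, at 2914 and 2888. *Pdlim1*, a LIM-domain protein of actin filaments, stood at 3726 and 3714. *Slc6a6*, the taurine transporter, was the most abundant of them, at 11699 and 11802. By the same measure, before centring, *Hprt-201* ranked 1836 of 9014, *Actb-201* 6741 and *Gapdh-202* 8932. These 10 were selected for small spread in the same 4 libraries, and their stability in other samples was not tested.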

How the data were processed

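The authors trimmed reads with BBDuk 38.22, quantified transcripts with Kallisto 0.44.0 and ran the comparison in Sleuth 0.30.0, and the submitters' processing notes name GRCm38. The Kallisto index is not given in the sources used here. The deposited means and effects are natural log values of normalised estimated counts plus 0.5, which was checked on the group means, none of which fell below the log of 0.5. For 223 transcripts the lower group mean equalled it within 1e-06. The deposited variances gave the spread. The deposited effect of KD against WT was used as the difference between group means, since no single-library values were used. The authors' standard errors served one alternative only, and their test statistics, p-values and q-values, and their gene table of combined p-values, were not used.

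The variance within groups (2 degrees of freedom) was computed from the deposited total variance and effect, moderated with limma's trended squeezeVar (2.67 prior degrees of freedom), and tested two-sided with Benjamini-Hochberg adjustment. The method was tested on simulated data. Log2(fold change) is the effect divided by the natural log of 2. Group levels are exponentials of the mean plus 0.5 times the effect (KD) or minus as much (WT), less 0.5, and gene sums add tested transcripts. Positions and sequences came from GENCODE M21 (GRCm38), which matched 98.6% of the transcripts. Copies were annotated transcripts with at least 50% of their 31-base words in a member.

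The members and gene lists were chosen with earlier results of these data known. Named were every member transcript, *Setd2*, in each list the 2 called genes with the largest rise and fall and the 2 with the smallest change, and the 10 genes of smallest spread. *Pgk1*, *Atp5b*, *Ywhaq*, *Ppif*, the other cyclophilin genes, *Actg1*, *H2-D1* and the order of the pairs were chosen after their values were seen. Alternatives were other variances, a minimum of 100 counts, other centrings, copies in the sums and each gene as reference.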

Additional observations from a re-analysis of the deposited data

How the results depend on the processing

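Of the 18 reference gene transcripts 2 were called, and the number was 3 with the deposited standard error, 0 without a trend of the variance on the mean, 1 when centred on transcripts with a mean of at least 1000 and 1 when centred on transcripts of similar GC content. Over all transcripts the 3312 calls became 127 without the trend, 6233 with the deposited standard error, 4968 of 18832 with a minimum of 100 counts, and 2002 with centring on GC content. Without the trend *Setd2*, *Gapdh-202*, *Gm7336* and *Gm13394* were not called either (adjusted p from 0.0537 to 0.120). Why these counts differ was not tested.

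Centring on transcripts with a mean of at least 1000 moved the *Actb* sum to 0.36 and reversed *Hprt* (−0.0077, transcript and sum) and *Gusb-202* (−0.00089). Centring on GC content, applied to the sums, as both centrings were to pairs and further lists, after the data were seen, reversed *B2m* (0.031), *Tbp-211* (0.14) and *Ppia* (−0.024 for *Ppia-202*, −0.026 for the sum) and moved the sums of *Gapdh* to 0.84 and *Hprt* to 0.26. The log2(fold change) of *Setd2* was −2.45 over *Actb*, −3.02 over *Gapdh*, −2.08 over *Hprt*, −2.18 over *Tbp*, −1.81 over *B2m*, −1.75 over *Ywhaz*, −2.21 over *Gusb*, −2.18 over *Ppia* and −2.21 over the geometric mean. Adding copies, also chosen after the data were seen, reversed no sum.

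Leaving out single libraries was not run, because their values were not used. No paired analysis was possible because the columns used hold no values of single libraries. With 2 libraries a group, differences within the printed intervals could not be resolved.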
